A study of Oryza sativa with 3 samples.

Results

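Small RNA reads of rice whose last base did not match the miRNA precursor were described here, base by base, in 3 lines that differ in OsNAR2.1, the partner protein of high-affinity nitrate transporters. A sequence was a member when it aligned to at least 1 known rice precursor (osa-MIR), had no alignment free of a mismatched, inserted or deleted base, and was mismatched at its last (3′) base. By this rule 868 of the 9961 distinct sequences at known precursors were members, with 339 of 3914 in NP, 479 of 5368 in Ov199 and 378 of 4347 in the RNAi line, and none was classed differently in another library. NP was the untransformed wild type (Nipponbare, a japonica cultivar), Ov199 was a transgenic line that overexpresses OsNAR2.1 from the Ubi promoter (pUbi-OsNAR2.1), and RNAi was a line in which OsNAR2.1 was silenced by RNA interference. The RNAi sample also carries the tag Ni, which the sources do not explain. All plants were grown in field plots with basal P and K and with urea as N fertilizer, and at the blooming stage RNA of stems, leaves and flowers was pooled into 1 library per line. With no replicates, a test on reads compares these libraries and not the lines, and each transgenic line is a single line. The pooled organs cannot be told apart either, and the precursor reads hold no mRNA with which to check the level of OsNAR2.1.

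Plant miRNAs are cut from hairpin precursors by DICER-LIKE 1, and the methyltransferase HEN1 (WAF1 in rice) then methylates the last base of each strand. In Arabidopsis, miRNAs that lack this methyl group are trimmed and receive bases that the genome does not encode, mostly uridines added by HESO1 and URT1, and such tailed molecules are often degraded. Uridine is written T in these reads. The files give the base that was read at the end and not how it came to be there, and the activity of these enzymes was not tested.

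The 12 most-read sequences held 43.2% of all reads with a mismatched last base in NP, 45.2% in Ov199 and 47.1% in the RNAi line, and are shown because most results below turn on them. Each is written 5′ to 3′, as read, with the mismatched last base in capitals.
MIR159a, bases 62 to 80: agctgctgggtcatggatT
MIR159a, bases 62 to 81: agctgctgggtcatggatcT
MIR159a, bases 62 to 82: agctgctgggtcatggatccT
miR159a/b, 19 nt: tttggattgaagggagctT
miR159a/b, 21 nt: tttggattgaagggagctctT
miR159a/b, 22 nt: tttggattgaagggagctctgA
miR396e/f, 21 nt: tccacaggctttcttgaactT
miR166, 9 precursors, 19 nt: tcggaccaggcttcattcT
miR166k/l, 19 nt: tcggaccaggcttcaatcT
miR156d/f/h/j, 22 nt: ttgacagaagagagtgagcacT
MIR5083, 27 nt: agaaaccaatggatccttctgagcctA
MIR5083, 26 nt: gaaaccaatggatccttctgagcctA
Of these, 9 ended on T, and the others ended on A. None of the 12 ended on C or G, and 6 came from MIR159 precursors.

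The most-read members that ended on the other bases were both 25 nt long, and are shown for comparison.
MIR1423, 25 nt: gcaactacacgttgggcgctcgatG
MIR2873a, 25 nt: aagtttggacttaaatttggtaacC

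Reads with a mismatched last base were 1260 of the 35613 reads at known precursors in NP, 2406 of 69313 in Ov199 and 1632 of 49996 in the RNAi line. These were 3.54% in NP (95% Wilson interval, 3.35 to 3.74%), 3.47% in Ov199 (3.34 to 3.61%) and 3.26% in the RNAi line (3.11 to 3.42%). Wherever 3 values follow without library names, they stand in this order. The reads carry no molecular identifiers, so these and all later intervals cover counting error only. No pair of libraries passed Fisher's exact test (two-sided, adjusted over 3 pairs), and the adjusted p was 0.582 between Ov199 and NP and 0.0773 in each of the pairs with RNAi. Without the MIR5083 family, described below, the shares were 3.05% in NP, 3.496% in Ov199 and 3.03% in the RNAi line, and Ov199 was then above NP (adjusted p = 0.000296) and above RNAi (adjusted p = 3.96e-05, Fisher's exact test). That family was left out after the data were seen. With only sequences of a single precursor the shares were 4.44%, 3.75% and 3.71%, and NP was instead above each of the others (adjusted p = 0.000140, Fisher's exact test).

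The last base stood apart from the inner bases. Among sequences with a mismatch and no other event, a mismatch at the last base was found in 3.34% of reads in NP, 3.29% in Ov199 and 3.13% in the RNAi line, while an inner base held a mean of 0.404%, 0.374% and 0.352% per place. The next-to-last base held 0.517% in NP (0.447 to 0.597%), 0.690% in Ov199 (0.631 to 0.754%) and 0.474% in the RNAi line (0.418 to 0.538%). The third to the eighth base from the 3′ end held at most 0.298% in any library. Thus the mismatches at the 3′ end were concentrated at the last place, with a smaller excess at the place before it. Some inner bases near the 5′ end held more than the next-to-last base. The second base from that end held 0.826%, 0.716% and 0.710%, and the fifth 1.008%, 0.860% and 0.898%. The first (5′) base was mismatched somewhat more often than the last, in 3.71%, 3.53% and 3.71% of reads. In RNAi the intervals of the first base (3.55 to 3.88%) and the last (2.98 to 3.28%) lay apart, and in NP and Ov199 they overlapped. Members were also read more often than sequences with an inner mismatch, with a mean of 3.72 reads per sequence in NP, 5.02 in Ov199 and 4.32 in the RNAi line, against 2.12, 2.50 and 2.29, but less often than those with a mismatched first base, with 5.35, 7.19 and 7.03. Of the members, 202 of 339 in NP, 234 of 479 in Ov199 and 200 of 378 in the RNAi line were read only a single time.

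The base read at the mismatched last place was most often T. In NP, T ended 55.6% of their reads (52.9 to 58.4%), against 76.0% in Ov199 (74.2 to 77.6%) and 62.4% in the RNAi line (60.1 to 64.8%). A followed with 30.9%, 12.3% and 23.8%, then C with 9.60%, 7.15% and 8.70%, and G with 3.89%, 4.53% and 5.09%. Counted by distinct sequence, T ended 51.0% of the members in NP, 51.4% in Ov199 and 49.2% in the RNAi line, so by this count the libraries lay within each other's intervals. At inner mismatches T was read in only 33.5% of reads in NP, 34.3% in Ov199 and 33.2% in the RNAi line, close to A with 28.1%, 32.0% and 30.1%. At mismatched first bases G was the most common, with 52.6%, 50.9% and 49.6% of reads. The bases read at the last, the first and the inner places thus differed from each other.

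The excess of T was clearest where the precursor holds A. At such places T made up 63.9% of the mismatched last bases in NP, 80.9% in Ov199 and 83.8% in the RNAi line, against 17.2%, 14.6% and 17.4% of the mismatched inner bases. Where the precursor holds G, T made up 31.7%, 72.1% and 43.1% at the last base and 24.6%, 27.2% and 28.4% at inner bases. The mismatched last bases at G were 445, 484 and 436 reads. Reads ending on A at 1 such place, base 212 of MIR5083 (described below), numbered 238, 42 and 167. The part of T at G thus depended on this 1 place, most of all in NP and RNAi. Where it holds C, T made up 84.0%, 85.8% and 83.9% at the last base and 75.7%, 69.9% and 73.4% at inner bases, a smaller gap than at A in all 3 libraries. The C-to-T change was thus common at both kinds of place, and an A-to-T change was common at the last place and not at the inner ones.

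Between libraries, T took a larger part of the reads in Ov199 than in NP (adjusted p = 4.74e-35, Fisher's exact test over 4 bases and 3 pairs) and than in RNAi (adjusted p = 1.03e-19), and a larger part in RNAi than in NP (adjusted p = 0.000489). A moved the other way (adjusted p = 1.67e-39, 2.48e-20 and 5.50e-05 in the same order, Fisher's exact test). MIR5083 held 238 of the 389 reads that ended on a mismatched A in NP, 44 of 297 in Ov199 and 169 of 388 in the RNAi line. Without MIR5083, T ended 69.0%, 77.4% and 69.8% of the members' reads. Ov199 remained above NP and RNAi (adjusted p = 1.91e-06 for each, Fisher's exact test), while RNAi against NP no longer passed (adjusted p = 0.828). In no library did the order of T before A depend on MIR5083.

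By length, the members' reads had peaks at 19, 21 and 25 nt. In NP, 17.3% of the reads were 19 nt, 18.1% were 21 nt and 15.4% were 25 nt. In Ov199 these were 21.6%, 28.0% and 7.73%, and in RNAi 18.3%, 20.9% and 13.3%. Perfectly aligned reads had their peaks at 21 nt, with 55.0%, 57.6% and 57.1%, and at 24 nt, with 12.7%, 10.6% and 13.1%. Of these perfectly aligned reads, only 2.62%, 2.96% and 2.59% were 19 nt and 1.40%, 0.711% and 0.906% were 25 nt. By reads, the members were therefore above the perfectly aligned sequences at 19 nt and at 25 nt. Counted by distinct sequence, 19 nt held 6.49%, 6.05% and 5.03% of the members and 6.37%, 6.72% and 6.10% of the perfectly aligned sequences. By that count the members were above them at 25 nt only of these 2 lengths, with 18.9%, 13.15% and 16.4% against 3.97%, 3.58% and 4.39%. Reads with a mismatched first base were also often 25 nt, with 9.40%, 7.98% and 10.7%, but seldom 19 nt, with 2.19%, 1.27% and 0.983%. The length went with the base. Reads ending on a mismatched T were most often 19 nt in NP (211 of 701 reads) and 21 nt in Ov199 (563 of 1828) and RNAi (293 of 1019). Reads ending on a mismatched C or G were most often 25 nt in all 3 libraries, with C in 53, 55 and 50 reads and G in 31, 43 and 46 reads. Short sequences of 15 to 18 nt held 5.56%, 6.98% and 5.70% of the members' reads but 27.4%, 29.9% and 28.6% of the reads with an inner mismatch.

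Most reads of the members continued a sequence that was itself present. Removing the last base gave a perfectly aligned sequence of the same library for 198 of 339 members in NP, 285 of 479 in Ov199 and 217 of 378 in the RNAi line. These were 58.4% (53.1 to 63.5%), 59.5% (55.0 to 63.8%) and 57.4% (52.4 to 62.3%) of the members, and they held 85.9%, 86.5% and 84.3% of the members' reads. Other classes of sequences were not counted in this way, so these shares cannot be called particular to the members. The longer sequence exceeded the shorter for only 17 members in NP, 29 in Ov199 and 22 in the RNAi line. Neither the shorter sequence nor the same sequence with the precursor's base was found for 108, 129 and 119 members, which held only 133, 197 and 179 reads.

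miR159, which represses GAMYB transcription factors of anther and aleurone development, held the most members' reads. The family had 398 in NP, 1006 in Ov199 and 551 in the RNAi line, or 11.1% of its own reads (10.1 to 12.2%), 11.9% (11.3 to 12.6%) and 11.2% (10.4 to 12.2%). The 3 intervals overlapped. T ended 89.7%, 88.9% and 91.7% of them, and miR159 gave 50.9%, 48.9% and 49.6% of all reads that ended on a mismatched T.

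On MIR159a, from base 62 of the precursor on, T followed 4 successive ends of the same strand. The strand truncated to 18 nt, agctgctgggtcatggat, was read 47 times in NP, 120 in Ov199 and 77 in the RNAi line, and the same strand with a T, agctgctgggtcatggatT, 98, 229 and 125 times. The form with T was therefore more abundant than the form without, at 67.6% of both in NP (59.6 to 74.7%), 65.6% in Ov199 (60.5 to 70.4%) and 61.9% in the RNAi line (55.0 to 68.3%). After the 19-nt strand the T form was agctgctgggtcatggatcT with 51, 149 and 75 reads, at 19.1%, 23.4% and 16.3% of the reads of the pair. After the 20-nt strand it was agctgctgggtcatggatccT with 63, 175 and 121 reads, at 8.70%, 8.60% and 10.05%. After the 21-nt strand it was agctgctgggtcatggatcccT with 12, 33 and 24 reads. The part with a T thus became smaller from the shortest strand to the 20-nt strand in every library. A was read at the first of these places in only 1, 2 and 2 reads and G in 0, 2 and 0. Among reads of MIR159a that ran past the place of the 19-nt T, 1295, 3380 and 2010 held the precursor's C. T was held in 2, 6 and 0 of the reads that ran past it, so it was rare there. The next precursor base is also C, and alignments hold at most 1 event. A T followed by another T could therefore not appear among these reads.

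The mature miR159a/b strand showed the same form. The strand truncated to 18 nt, tttggattgaagggagct, was read 164, 316 and 177 times, and with T, tttggattgaagggagctT, 49, 130 and 82 times. The 20-nt strand was followed by T in tttggattgaagggagctctT with 46, 76 and 53 reads, or 11.4%, 10.8% and 12.5%. Here T was not confined to the ends of reads, since reads that ran past this place held T in 16, 23 and 18 reads beside the precursor's G in 118, 277 and 141. At the full 21-nt length, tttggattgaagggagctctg, with 267, 741 and 353 reads, the added base was more often A, in 22, 38 and 30 reads, than T, in 7, 34 and 4 reads. The precursor base there is C.

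miR166, which targets the HD-ZIP III genes of leaf polarity and vascular development, was the most abundant family and had a low share of members. It held 125 of 11973 reads in NP, 285 of 21846 in Ov199 and 173 of 15755 in the RNAi line, or 1.04%, 1.31% and 1.10%. The abundant 21-nt strands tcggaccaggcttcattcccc and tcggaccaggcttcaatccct are followed by T on at least 1 precursor. A T added to them counts as perfectly aligned, so the rule keeps it out of the members and lowers this share. At the ends of truncated strands, where the next base is C, the picture differed from the family average. The strand tcggaccaggcttcattc was read 9, 11 and 11 times, and with T, tcggaccaggcttcattcT, 28, 76 and 39 times, or 75.7%, 87.4% and 78.0% of the pair. The miR166k/l strand behaved alike, with 11, 4 and 14 reads of tcggaccaggcttcaatc and 14, 32 and 30 of tcggaccaggcttcaatcT. In both the T replaced a C of the precursor, and the 19-nt strand with that C was read 60, 126 and 72 times in the first set and 1, 2 and 6 times in the second. Reads that ran past this place in the first set held C in 8521, 14886 and 11218 reads and T in 10, 8 and 9. T was thus rare at this place in reads that ran past it, as at the 19-nt place of MIR159a. On MIR166g and MIR166h, where the next base is T, the strand ending on TT was read 5, 4 and 6 times. Where the next base is C, such a form could not appear, since alignments hold at most 1 event.

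miR156, which targets the SPL genes of phase change and panicle branching, had 9.13% of its reads with a mismatched last base in NP (5.93 to 13.8%), 14.5% in Ov199 (12.1 to 17.2%) and 13.2% in the RNAi line (10.6 to 16.4%). Nearly all ended on T, with 17 of 19, 103 of 106 and 69 of 69 reads. The main form, ttgacagaagagagtgagcacT, continued a 21-nt strand past its end and had 11, 52 and 53 reads, beside 71, 239 and 196 of the strand itself. The form with T made up 13.4% of both in NP (7.66 to 22.5%), 17.9% in Ov199 (13.9 to 22.7%) and 21.3% in the RNAi line (16.7 to 26.8%). These intervals overlapped. The precursor base at that place is A, and the strand with A was read 0, 1 and 0 times. miR396, which targets growth-regulating factors, had 4.70%, 6.65% and 5.05%, of which T ended 89.7%, 94.4% and 90.8%. Its main form, tccacaggctttcttgaactT, had 29, 112 and 51 reads beside 101, 266 and 133 of the 20-nt strand, or 22.3%, 29.6% and 27.7% of the pair. Reads that ran past this place held T in 29, 101 and 54 reads and the precursor's G in 3, 5 and 1. Most of those with T were the same strand ending on TT, with 28, 90 and 51 reads. T was thus not confined to the last base here, but in that strand it lay next to last. miR168, which targets AGO1, the slicer of the silencing complex, had 1.53%, 2.32% and 1.54%, and T ended only 53.3%, 50.5% and 56.9% of these reads.

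miR393, which targets the auxin receptors of the TIR1/AFB family, had 6 members' reads of 151 in NP, 62 of 467 in Ov199 and 26 of 198 in the RNAi line, or 3.97%, 13.3% and 13.1%. Its main form, tccaaagggatcgcattgatT, had 2, 27 and 19 reads. The strand without that T was rare, with 4, 6 and 0 reads, and the strand with the precursor's C had 32, 105 and 34 reads. Reads that ran past this place held T in 36, 122 and 43 reads and C in 1, 2 and 2. Most of those with T were a strand ending on TT, with 33, 113 and 37 reads. T was thus not confined to the last base, but in that strand it lay next to last. For this family the TT form was more abundant than the member. On MIR393b, where the base after that C is a T, the strand ended on TT in place of CT. This form belongs to the next-to-last place and not to the members.

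Such forms made up much of the excess of mismatches at the next-to-last place. There T was read in 117 of 184 reads in NP (63.6%, 56.4 to 70.2%), 373 of 478 in Ov199 (78.0%, 74.1 to 81.5%) and 172 of 237 in the RNAi line (72.6%, 66.6 to 77.9%). At the third place from the end T held only 43.2%, 34.9% and 27.7%. Reads with both last bases T, of which the last matched the precursor, were 91, 301 and 138, or 49.5%, 63.0% and 58.2%. The 3 most-read sequences are shown because they extend members given above, with the last 2 bases in capitals.
miR393b, 22 nt: tccaaagggatcgcattgatTT
miR396e/f, 22 nt: tccacaggctttcttgaactTT
miR159a/b, 20 nt: tttggattgaagggagctTT
The first was read 33 times in NP, 113 in Ov199 and 37 in the RNAi line, the second 28, 90 and 51 times, and the third 7, 28 and 19 times. Each equals a member with T at its end plus another T, and the aligner could place it only because the precursor holds T there. Alignments in the files hold at most 1 event, so ends with 2 mismatched bases are outside these data. An added base that happens to equal the precursor's next base is counted as perfectly aligned.

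MIR5083 was among the exceptions to T. Its members ended on A in 238 of 244 reads in NP, 44 of 45 in Ov199 and 169 of 172 in the RNAi line, and never on T. Nearly all of these reads ended at a single place of the precursor, base 212, which is G. The reads with A at that end numbered 238, 42 and 167, in 10, 8 and 9 sequences of 18 to 28 nt that begin at different bases and share this end, so they are not independent of each other. Strands that ended just before it were read 1547, 1469 and 1386 times. The form with A made up 13.3% of both in NP (11.8 to 15.0%), 2.78% in Ov199 (2.06 to 3.74%) and 10.8% in the RNAi line (9.31 to 12.4%), and the Ov199 interval lay below the others. The strand with the precursor's G at the same end had 252, 75 and 76 reads. Reads that ran past base 212 were only 3, 0 and 3, and all of them held G. Per 1000000 aligned reads, strands that ended just before base 212 were at 31353 in NP, 15602 in Ov199 and 22097 in the RNAi line. The whole family was at 46614, 18799 and 29430.5. These strands and the family were thus also lower in Ov199 than in NP, as was the form with G. The longest main form, agaaaccaatggatccttctgagcctA, was read 82, 10 and 80 times. Its fold in Ov199 against NP was 0.0695 (adjusted p = 1.67e-25, Fisher's exact test), and in RNAi against NP 0.769 (adjusted p = 0.305). Folds here are ratios of normalized counts, reads per 1000000 aligned reads, after addition of 10.

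Other families also ended on bases other than T. miR1423 had 31 of 86 reads with a mismatched last base in NP, 48 of 218 in Ov199 and 44 of 149 in the RNAi line, or 36.0%, 22.02% and 29.5%, of which A ended 15, 20 and 16 and G 14, 24 and 26. Its form gcaactacacgttgggcgctcgatG had 12, 17 and 23 reads beside 8, 36 and 14 of the 24-nt strand. miR2873 gave the most-read sequence with C, aagtttggacttaaatttggtaacC, with 17, 16 and 4 reads beside 19, 21 and 14 of the strand without C. The long miR1876, read 1780, 3097 and 2756 times as a 24-nt strand, had 24, 40 and 62 members' reads, of which A ended 18, 21 and 29 and C 3, 13 and 23. miR820, whose precursors are transposon-derived, had 6.61%, 8.24% and 7.64%, with no base in the majority. miR812 had 4.07%, 3.53% and 4.01% of its reads with a mismatched last base, and 55.9%, 56.7% and 53.7% with an inner mismatch.

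Set against each other, the 26 conserved families had 2.67% of their reads with a mismatched last base in NP (2.47 to 2.88%), 3.50% in Ov199 (3.35 to 3.66%) and 2.70% in the RNAi line (2.54 to 2.87%). T ended 84.5%, 86.4% and 86.0% of these. The 4 families of long miRNAs (miR820, miR1862, miR1863 and miR1876) had 2.33%, 2.62% and 3.09%, and T ended only 27.0%, 35.8% and 17.6%, while A ended 50.8%, 35.0% and 40.0%. In Ov199 the interval of the long families (2.20 to 3.13%) lay below that of the conserved ones. miR159 alone held 398 of the 658 members' reads of the conserved families in NP, 1006 of 1822 in Ov199 and 551 of 994 in the RNAi line. The median over families with at least 100 reads went the other way, with 0.926%, 1.30% and 0.737% for the conserved and 1.59%, 2.87% and 2.95% for the long ones, and these differences were not tested. Only 3 long families had that many reads, and the median among them was that of miR1862, on 4, 10 and 9 members' reads. Some abundant families had low shares. miR444, which targets MADS-box genes of the nitrate response, had 6 of 1645, 21 of 4025 and 11 of 2573 reads, or 0.365%, 0.522% and 0.427%. miR529 had 0.265%, 0.217% and 0.170%, and miR167, which targets auxin response factors, 0.527%, 0.845% and 0.308%. miR5077 had 0 of 500, 0 of 1029 and 0 of 677 reads with a mismatched last base (upper 95% Wilson bounds of 0.762%, 0.372% and 0.564%), although 62.8%, 61.0% and 57.9% of its reads had an inner mismatch.

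Across families with at least 100 reads in both libraries, the share with a mismatched last base differed between Ov199 and NP for 4 of 32 (12.5%, Fisher's exact test, adjusted p under 0.05 over all families and pairs). miR5083 was at 10.6% in NP and 2.54% in Ov199 (adjusted p = 1.37e-23, Fisher's exact test). miR1868 was at 7.97% in NP and 0.820% in Ov199 (adjusted p = 0.0126), and miR531 at 6.01% and 2.09% (adjusted p = 0.0439, Fisher's exact test). miR393 was the family with the higher share in Ov199, 13.3% against 3.97% (adjusted p = 0.0215, Fisher's exact test). Between RNAi and NP none of 32 families differed (0.0%) by the adjusted Fisher's exact test, and 3 (9.38%) had an unadjusted p under 0.05. Between RNAi and Ov199, 3 of 34 differed (8.82%), and miR5083, miR531 and miR7695 all had the higher share in RNAi.

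Single sequences were shared between libraries according to their reads. Of the 868 members, 103 were in all 3 libraries, 122 in 2 and 643 in 1. With at least 5 reads in a library, 60 of 83 members were in all 3 (72.3%), beside 68.7% of the sequences with an inner mismatch and 75.8% of the perfectly aligned ones. Thus the well-read members recurred about as often as other sequences of that depth.

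For the comparison of levels, 46 of the 677 members with a read in Ov199 or NP had at least 10 reads over both libraries, as did 35 of 575 for RNAi and NP and 52 of 709 for RNAi and Ov199. Between Ov199 and NP, 22 of 46 members were past 2-fold, 14 higher and 8 lower, against 34.1% of all 637 sequences tested (19.8% higher and 14.3% lower). With TMM scaling the split was 10 higher and 9 lower, and with DESeq2 size factors 10 and 10. Between RNAi and NP it was 12 of 35, 6 in each direction, against 26.1%, and between RNAi and Ov199 29 of 52, 13 higher and 16 lower, against 34.2%. The median log2 fold of the members was 0.49, 0.13 and 0.10, beside 0.16, 0.12 and 0.02 for all sequences tested. With an adjusted p under 0.05 (Fisher's exact test), 13 of 46, 8 of 35 and 12 of 52 members differed, against 19.9%, 18.4% and 21.2% of all. The 3 comparisons share their libraries and are not independent.

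By this test 6 of 46 members were higher in Ov199 than in NP, against 9.42% of all sequences, 2 from miR156, 2 from miR159 and 1 each from miR393 and miR396, and all 6 ended on T. Of the 7 that were lower, against 10.5% of all, 6 came from MIR5083 and ended on A at base 212. ttgacagaagagagtgagcacT of miR156 was 2.41-fold higher in Ov199 than in NP (adjusted p = 0.0271) and 3.67-fold higher in RNAi (adjusted p = 0.000128, Fisher's exact test). Its part of the pair with the strand without T was 13.4% in NP, 17.9% in Ov199 and 21.3% in the RNAi line, with overlapping intervals. tccaaagggatcgcattgatT of miR393 was 5.87-fold higher in Ov199 (adjusted p = 0.00942) and 6.19-fold higher in RNAi (adjusted p = 0.0105, Fisher's exact test), on 2 reads in NP. tccacaggctttcttgaactT of miR396 was 2.01-fold higher in Ov199 (adjusted p = 0.00407) and 1.38-fold in RNAi (adjusted p = 0.451, Fisher's exact test). The MIR159a forms agctgctgggtcatggatcT and agctgctgggtcatggatccT were 1.53- and 1.45-fold higher in Ov199 (adjusted p = 0.0452 and 0.0473, Fisher's exact test). With reads at known precursors as the total, these last p-values were 0.0548 and 0.0740. The most-read member, agctgctgggtcatggatT, had normalized counts of 1986 in NP, 2432 in Ov199 and 1993 in the RNAi line and did not pass the test in any pair.

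In RNAi against NP, 4 of 35 members were higher, against 10.9% of all sequences, from miR156, miR159, miR393 and miR1876. The miR159 sequence, agctgctgggtcatggatccT, was 1.51-fold higher (adjusted p = 0.0410, Fisher's exact test), and with reads at known precursors as the total its adjusted p was 0.171. The miR1876 sequence, ataagtgggtttgtgggctggcccC, had a read count of 2 in NP, 13 in Ov199 and 20 in the RNAi line. The 4 lower ones, against 7.52% of all, were 3 from MIR5083 and aagtttggacttaaatttggtaacC of MIR2873a, at 0.208-fold (adjusted p = 0.00614, Fisher's exact test).

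In RNAi against Ov199, 7 of 52 members were higher, against 12.2% of all sequences, and 5 of them came from MIR5083 and the other 2 from MIR1882e. The MIR1882e forms aaatgatcttggacgtaatctagA and gaaatgatcttggacgtaatctagA had 10 and 7 reads in NP, 0 and 0 in Ov199 and 12 and 12 in the RNAi line. Each was at least 6.004-fold higher in RNAi than the limit of 3 reads that a count of 0 allows in Ov199. The shorter strand without the A was also at 0 in Ov199. No read of any kind from the miR1882 family was found in Ov199, beside 65 in NP and 217 in the RNAi line. The whole family and not only its A was thus missing at this depth. Of the 5 lower ones, against 8.92% of all, aaccttgttaaggtcggaacT of MIR820b/c had 2, 19 and 1 reads and ttcggaccaggcttcattccT of MIR166c/j had 7, 18 and 1, at 0.122-fold and 0.129-fold (adjusted p = 0.00672 and 0.0107, Fisher's exact test).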

How the data were processed

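One small RNA library per line was sequenced on an Illumina sequencer. The authors removed adapters and low-quality reads, collapsed identical reads, aligned them to rice precursors and to precursors predicted with miRDeep2, and deposited raw read counts per distinct sequence and alignment. The aligner's version, settings and the genome build are not given in the sources used here. Each sequence was counted a single time per library; aligned reads were 49341 in NP, 94154 in Ov199 and 62724 in the RNAi line, so that 1 read equals 20.3, 10.6 and 15.9 normalized counts. A sequence that aligned to several families was counted at each. A member may also have alignments with the event elsewhere (33, 24 and 33 sequences). Shares have 95% Wilson intervals. Reads were compared between libraries with Fisher's exact test (two-sided) and Benjamini-Hochberg adjustment, after testing on simulated data. Sequences named in the text are the 12 most-read members, the most-read member for each base, the 10 families with the most members' reads and, per comparison, the 5 members furthest from equal levels that also had an adjusted p under 0.05. Other named families and the forms with 2 T were chosen after their values were seen. Members and lists were chosen with earlier results of these data known. Alternatives were other subsets of sequences, pseudocounts, minimums and totals, with scaling by edgeR (4.0.16) TMM and DESeq2 (1.42.0) size factors. Python 3.11.15, pandas 2.3.3, scipy 1.17.1 and R 4.3.3 were used.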

Additional observations from a re-analysis of the deposited data

Results flagged for a closer look

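Sequences that aligned only to the precursors predicted by the authors lie outside the comparisons above, and they also held reads with a mismatched last base, above the limit of 3 reads that a count of 0 allows. In NP they numbered 880, against 1703 in Ov199 and 1059 in the RNAi line, or 6.41% (95% Wilson interval, 6.01 to 6.83%), 6.86% (6.55 to 7.18%) and 8.32% (7.85 to 8.81%) of the reads at predicted precursors only. T ended 49.9%, 54.3% and 46.1% of them, and A 6.25%, 7.75% and 6.33%.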

How the results depend on the processing

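No paired analysis was possible because each line has 1 library. Without replicates no spread between plants can be estimated, and 46, 35 and 52 members had enough reads to be compared between libraries.

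The difference in the share of reads with a mismatched last base (in percentage points, from -0.0668 for Ov199 minus NP, -0.274 for RNAi minus NP and -0.207 for RNAi minus Ov199) changed with the sequences counted. For Ov199 minus NP it was 0.0797 without sequences read a single time, 0.400 with 20 to 24 nt only, -0.697 with a single precursor only, 0.262 with each distinct sequence counted a single time and 0.446 without MIR5083. For RNAi minus NP it was -0.737 with a single precursor only, 0.0344 with each sequence counted a single time and -0.540 without miR166. For RNAi minus Ov199 it was -0.427 with 20 to 24 nt only and -0.463 without MIR5083. The differences with 20 to 24 nt, with a single precursor, without miR166 and without MIR5083 passed Fisher's exact test there. The cause was not tested.

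The difference in T among members' reads (20.3, 6.80 and -13.5 points in the same order) was 0.325, -1.83 and -2.15 with each sequence counted a single time, and that in A (-18.5, -7.10 and 11.4) was 1.18, 1.54 and 0.357, none past the test. RNAi minus NP was 0.799 for T and 0.138 for A without MIR5083, and 0.882 and 0.980 without MIR5083 and miR159, which were both left out after the data were seen.

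Reads of 19 to 22 nt (53.7% in NP, 75.1% in Ov199 and 61.3% in RNAi) were 44.8%, 49.7% and 44.2% with each sequence counted a single time, 41.9%, 68.9% and 50.2% with a single precursor only, and in Ov199 78.2% without sequences read a single time. Members with a shorter perfect sequence were 66.1%, 64.5% and 66.1% when it was searched in all 3 libraries, 78.8%, 72.2% and 68.5% without sequences read a single time, in Ov199 65.2% at 20 to 24 nt, and 85.9%, 86.5% and 84.3% by reads.

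Families that differed numbered 2 in place of 4 (Ov199 against NP) and 1 in place of 3 (RNAi against Ov199) with a single precursor, 5 in the latter pair without sequences read a single time, and 1 in it and 1 for RNAi against NP when families with 50 reads were added. Members past 2-fold numbered 12, 7 and 12 with a pseudocount of 100, and 579, 470 and 615 with no minimum of reads, where a single read passes. Members with an adjusted p under 0.05 numbered 8, 3 and 6 with no minimum of reads, where more sequences were tested. TMM moved the log2 ratios by -0.10, -0.11 and -0.01, DESeq2's size factors by -0.12, -0.14 and -0.02.

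Of 104 alternative values for the 26 comparisons of single sequences that passed, 0 changed direction and 16 no longer passed.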
